A study of Homo sapiens with 25 samples.

Results

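The comparison described here is that of Jurkat cells kept at 50% histidine with Jurkat cells kept at 100% histidine, both days pooled and day as a covariate. It took 11 of the 25 libraries of a histidine-restriction series, chosen from their labels alone: all 6 libraries at 50% histidine (3 on day 3 and 3 on day 6) and all 5 at 100% histidine (2 on day 3, replicates 1 and 3, and 3 on day 6). Jurkat is a human T-cell leukaemia line, and all groups are this 1 line, with no other allele or agent named. As labelled, the groups differ in the histidine level of the medium and the day of collection. The concentration that stands for 100% is not given in the sources used here. Whether replicates came from separate cultures is not stated, so p-values reflect the spread among these libraries alone, and that spread may be technical. Libraries at 25% histidine (3 on day 3 and 3 on day 6) are set beside them where a level below 50% is needed.

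Cultured human cells cannot make histidine and depend on its uptake from the medium. When an amino acid runs short, uncharged transfer RNA activates the kinase GCN2, which phosphorylates eIF2 and favours translation of the transcription factor ATF4, and ATF4 then induces genes of amino acid synthesis, uptake and stress such as ASNS, TRIB3, CHAC1 and SESN2. The kinase complex mTORC1 reads amino acid supply in parallel and controls growth, ribosome synthesis and, through SREBP factors, sterol synthesis.

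In these data the measured transcriptome at 50% histidine lay close to that at 100% for most genes with a mean of at least 50. Lower genes had wider intervals. Of 22994 genes tested, 1 rose at 50% and 0 fell, which is 0.00435% and 0% of the genes (limma on log2 of normalized count + 1, adjusted p under 0.05 by Benjamini-Hochberg). The gene that rose was NDUFA7, a subunit of respiratory chain complex I. Without adjustment 1340 genes, 5.83%, had a p under 0.05, 744 of them higher and 596 lower at 50%. With the same design, 5091 genes (22.1%) passed at 25% against 100% and 5475 (23.8%) passed at 25% against 50%. These comparisons share libraries, so their values are given side by side only. In bulk RNA such as this, fewer cells of a type and less RNA per cell cannot be told apart.

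Sequences are shown for the called gene, whose start lies beside another gene, and for the group of endoplasmic reticulum chaperones, whose members lay on one side on day 6 and 7 of which hold a known promoter element. RefSeq promoter windows (GRCh38.p14, 250 bases before to 50 after a start) matched NDUFA7 and 18 of 19 chaperone genes. In the window of NDUFA7 (chr19:8321326-8321625, minus strand), printed 5′ to 3′, capitals mark the 120 bases between its start at 8321375 and the start of RPS28 at 8321496, which is read in the other direction. In the window of HSPA5 (chr9:125241294-125241593, minus strand), the gene of the chaperone BiP, capitals mark the fixed ends of an ER stress element, CCAAT and CCACG with 9 bases between them.
NDUFA7: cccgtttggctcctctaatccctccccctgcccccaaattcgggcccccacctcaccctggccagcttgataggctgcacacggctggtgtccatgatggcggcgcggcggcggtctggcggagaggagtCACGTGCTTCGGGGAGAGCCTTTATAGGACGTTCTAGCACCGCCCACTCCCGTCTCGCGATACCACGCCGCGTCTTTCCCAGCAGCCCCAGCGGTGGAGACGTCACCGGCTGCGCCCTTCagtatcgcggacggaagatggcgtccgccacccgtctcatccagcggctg
HSPA5: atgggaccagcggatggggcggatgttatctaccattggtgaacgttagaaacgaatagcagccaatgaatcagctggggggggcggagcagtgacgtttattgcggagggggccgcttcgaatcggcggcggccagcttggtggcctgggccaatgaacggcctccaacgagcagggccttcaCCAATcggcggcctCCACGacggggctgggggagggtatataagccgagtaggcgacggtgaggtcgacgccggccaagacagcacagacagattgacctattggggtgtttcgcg

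The ER stress element is the site through which the ATF6 and XBP1 factors are known to induce chaperones when unfolded protein accumulates in the endoplasmic reticulum. Searched on both strands with CCAAT, any 9 bases and CCACG, it was found in 7 of the 18 chaperone genes with a window, and in 0.0916% of all 27305 genes with a window. The matches are listed below, each read so that CCAAT comes first, with capitals at the fixed ends. A match is a description of these letters and not evidence that the site is used.
HSPA5 element (chr9:125241391-125241409, minus strand): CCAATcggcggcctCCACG
HSP90B1 element (chr12:103930216-103930234, plus strand): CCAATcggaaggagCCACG
HSP90B1 element (chr12:103930321-103930339, minus strand): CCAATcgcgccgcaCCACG
CALR element (chr19:12938384-12938402, minus strand): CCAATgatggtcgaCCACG
CANX element (chr5:179698778-179698796, plus strand): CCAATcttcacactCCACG
PDIA6 element (chr2:10812853-10812871, minus strand): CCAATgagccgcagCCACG
CRELD2 element (chr22:49918554-49918572, minus strand): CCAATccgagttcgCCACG
XBP1 element (chr22:28800603-28800621, minus strand): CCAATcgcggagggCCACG

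NDUFA7 (ENSG00000267855.5, chromosome 19, 8308768 to 8321396, minus strand, GRCh38 with GENCODE 29) measured 670, 625 and 584 normalized counts at 50% on day 3, against 403 and 466 at 100% on day 3. On day 6 it measured 603, 678 and 682 at 50%, against 409, 431 and 366 at 100%. Every library at 50% lay above every library at 100%. The difference was 0.62 on the log2 scale (SE 0.081, 95% interval 0.45 to 0.80, limma adjusted p = 0.00972), a 1.54-fold higher level at 50%. Within days the log2 difference was 0.53 on day 3 and 0.70 on day 6.

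At the lower histidine levels NDUFA7 lay both above and below its level at 100%. It averaged 568 ± 81.6 at 25% on day 3 and 392 ± 66.2 at 25% on day 6 (SD, n = 3 each), and its log2 difference of 25% against 100% was 0.14 (limma adjusted p = 0.466). At 12.5% on day 3 it averaged 608 ± 74.3 and at 0% on day 3 535 ± 82.7 (n = 3 each). For 35 other nuclear-encoded complex I subunits the log2 differences at 50% against 100% ran from -0.11 to 0.40, with a median of 0.09, and 0 of them passed. Of these, 31 lay above 0, against 11988 of all 22994 genes tested. This lean has limits in a related list of 25 nuclear respiratory chain genes. Their day 3 median was 0.02 without replicate 1 and 0.21 without replicate 3 of 100% on day 3. On day 6 it was -0.07 with the library number modulo 8 in a fit of all 25 libraries.

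The call of NDUFA7 has limits. It was lost in 10 of the other fits tried, among them without replicate 1 of 100% on day 3 (limma adjusted p = 0.0838) and without replicate 2 or 3 of 50% on day 6 (0.0682 and 0.0618). With the replicate block within day the difference was 0.63 (adjusted p = 0.0806). GENCODE 29 places a further gene, ENSG00000167774, on the same strand over almost the same stretch, so that reads can be split between the pair. In its gene spans RPS28 also overlaps the start of NDUFA7 by 239 bases on the other strand. The RefSeq starts given above differ from this, with 120 bases between them and no overlap. ENSG00000167774 measured 143, 64.1 and 36.9 at 50% on day 3, against 67.0 and 112 at 100%, and 31.0, 17.6 and 33.5 at 50% on day 6, against 61.3, 128 and 48.4 at 100%. The sum of NDUFA7 and ENSG00000167774 averaged 695 at 50% and 498 at 100%, a log2 difference of 0.47 (SE 0.094) that did not pass (limma adjusted p = 0.465). RPS28 itself, a protein of the small ribosomal subunit, had a log2 difference of 0.15 (SE 0.053, adjusted p = 0.823).

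**Figure D1:**
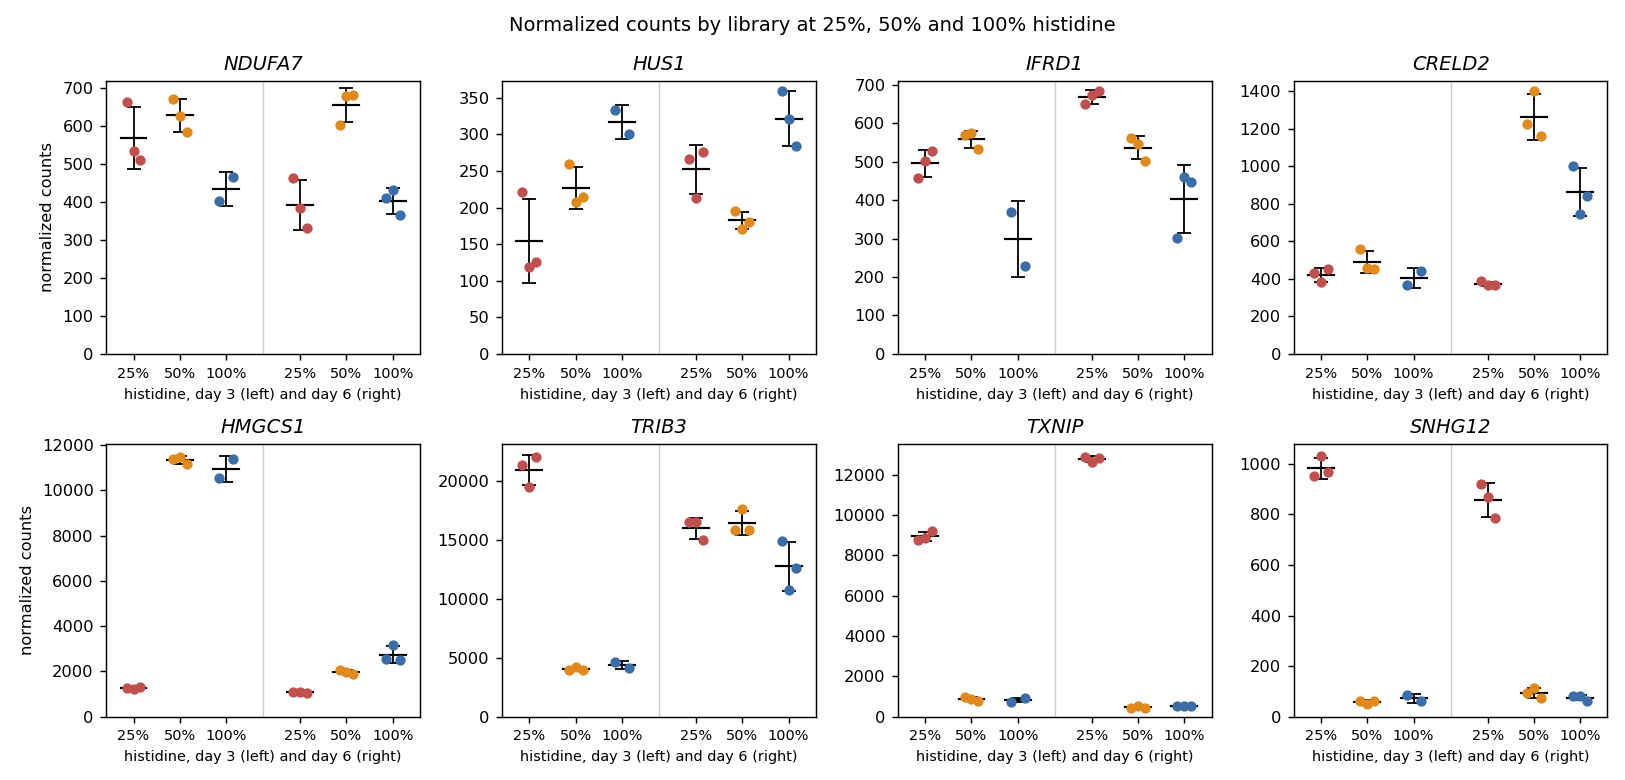
Normalized counts of 8 genes in every library at 25%, 50% and 100% histidine, with day 3 left and day 6 right in each panel. Points are libraries and bars are mean ± SD. NDUFA7 and HUS1 separate 50% from 100% on both days, whereas TXNIP and SNHG12 differ at 25% and lie together at 50% and 100%.

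A further 20 genes had the smallest p-values without passing, 10 in each direction, and are given as values. The lower side was led by HUS1, a subunit of a clamp that loads onto damaged DNA in the checkpoint response. HUS1 measured 259, 207 and 214 at 50% on day 3, against 333 and 301 at 100%, and 195, 171 and 180 at 50% on day 6, against 360, 321 and 284 at 100%. All libraries at 50% lay below all at 100%, with a log2 difference of -0.67 (SE 0.11, limma adjusted p = 0.127). It passed without replicate 1 of 50% on day 3 (adjusted p = 0.0436). At 25% its log2 difference from 100% was -0.68 (adjusted p = 0.0129).

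PTX3, a secreted pentraxin of innate defence, had a log2 difference of -1.19 (SE 0.22) and MMP2, a matrix gelatinase, of -0.84 (SE 0.17). UPP1, the phosphorylase that breaks down uridine, measured 24.1, 39.3 and 20.9 at 50% on day 3, against 58.4 and 66.8 at 100%, and 32.8, 37.9 and 17.7 at 50% on day 6, against 56.5, 51.0 and 70.4 at 100%. Its groups did not overlap on either day (log2 -1.10, SE 0.25, adjusted p = 0.609). The remaining genes with lower values were MYOF, STARD9, GNL3L, PNN, APPAT and MVP-DT, between -1.29 and -0.22 on the log2 scale.

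On the higher side HBA1, IDUA, CRELD2, RFXANK, CCNL1, IFRD1, MRPS11, FAM3C, CDK2AP2 and HBB had the smallest p-values, with limma adjusted p between 0.551 and 0.645. IFRD1, whose messenger RNA is known to be stabilized when eIF2 is phosphorylated, measured 569, 574 and 533 at 50% on day 3, against 370 and 230 at 100%, and 561, 547 and 503 at 50% on day 6, against 301, 461 and 447 at 100%. The groups did not overlap on either day, with a log2 difference of 0.66 (SE 0.14, adjusted p = 0.619). At 25% IFRD1 was higher than at 100% by 0.76 (limma adjusted p = 0.00049). CCNL1, a cyclin of splicing control, had a log2 difference of 0.49 (SE 0.11), and RFXANK, a subunit of the factor that drives MHC class II genes, of 0.27 (SE 0.060).

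Over all genes tested, 158 (0.687%) had every library at 50% above every library at 100% within each day, and 123 (0.535%) had every library below. Over all 22994 genes tested the 95% interval of the log2 difference lay inside ±0.5 for 11094 (48.2%) and inside ±1 for 15326 (66.7%). It lay wholly outside ±0.5 for 62. Differences were more tightly bounded in genes of higher level. Of 13306 genes with a mean of at least 50 at 50% or 100%, the 95% interval of the log2 difference lay inside ±0.5 for 11056 (83.1%) and inside ±1 for 12888 (96.9%), and it lay wholly outside ±0.5 for 10. The median size of the difference was 0.0693 at 50% against 100%, close to its median SE of 0.0849, and 0.225 at 25% against 100%. The plot of log2 difference against expression level shows the contrast.

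**Figure D2:**
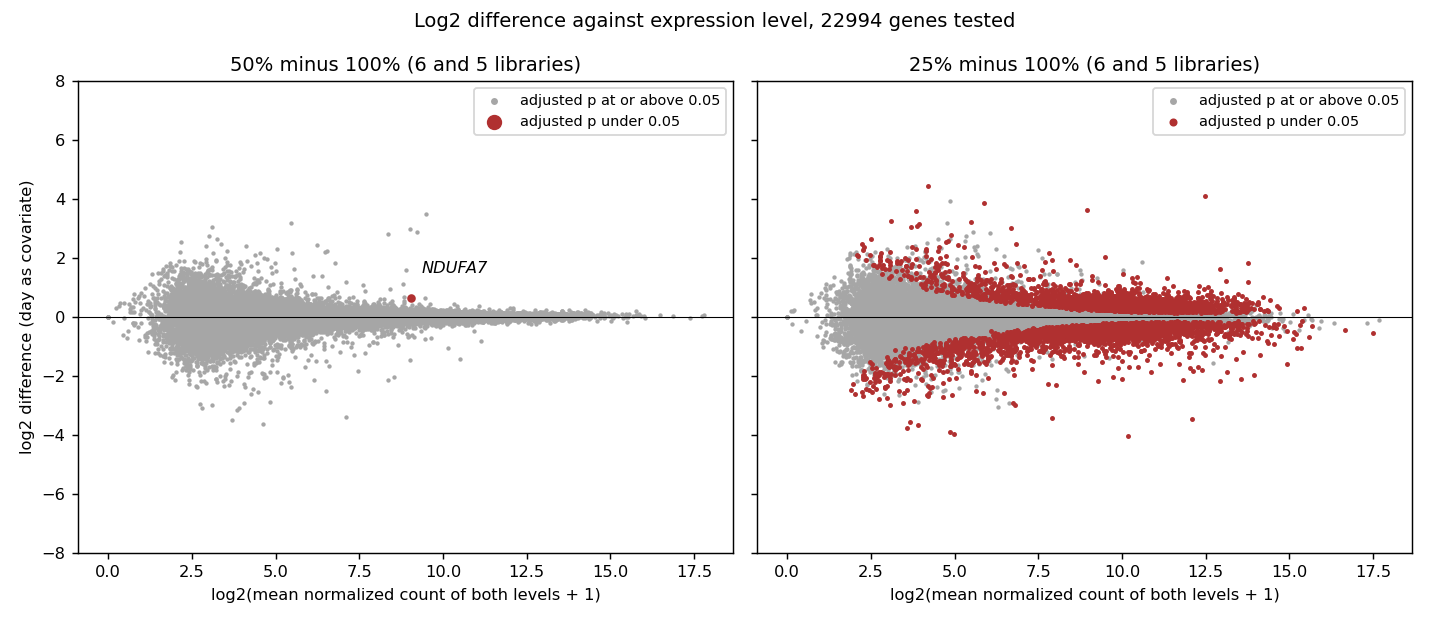
Log2 difference (vertical) against log2 mean normalized count (horizontal) for 22994 genes, 50% minus 100% histidine on the left and 25% minus 100% on the right, both with day as covariate. Red points passed limma's adjusted p of 0.05: 1 gene, NDUFA7, on the left and 5091 on the right.

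Genes of histidine use and of the amino acid response had values at 50% near those at 100%. Among 23 tested genes of histidine handling, 0 passed and the median log2 difference was 0.04, beside 0.01 over all genes. HARS1, which charges histidine onto its transfer RNA, averaged 1991 ± 119 at 50% on day 3 (n = 3) and 1951 ± 113 at 100% on day 3 (n = 2), and 1559 ± 5.52 at 50% on day 6 and 1465 ± 74.6 at 100% on day 6 (n = 3 each). Its pooled difference was 0.06 (95% interval -0.05 to 0.17). CNDP2, a dipeptidase that splits carnosine-like dipeptides, had a small difference of 0.10 (interval 0.0044 to 0.19), and at 25% it was higher than at 100% by 0.44 (limma adjusted p = 0.000163). HAL, the enzyme that begins histidine breakdown, was barely measured, at 0 to 42.1 normalized counts at 50% and 7.97 to 30.2 at 100%.

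Among 32 ATF4 and CHOP targets 0 passed, with a median of 0.01 and 18 members above 0. ASNS, the asparagine synthetase that ATF4 induces, had a log2 difference of -0.03 (interval -0.17 to 0.12), SESN2, a leucine-sensing inhibitor of mTORC1, of -0.01 (-0.12 to 0.10), and ATF4 itself of 0.06 (-0.02 to 0.15). CHAC1, a glutathione-degrading enzyme, stood at -0.12 (-0.27 to 0.04) and SLC7A11, the cystine transporter, at -0.02 (-0.18 to 0.15). At 25% against 100%, both days pooled, 8 targets rose and 8 fell, beside 22.1% of all genes called. SLC7A11 rose by 0.60 and ATF4 itself fell by 0.26. The days differed in sign at 25%. The list median in its libraries, relative to the mean at 100%, was 0.18, 0.17 and 0.22 on day 3. On day 6 it was -0.09, -0.11 and -0.12. The libraries at 100% lay at -0.0023 and 0.0023 on day 3, and at -0.03 to 0.0087 on day 6. TRIB3, a pseudokinase that restrains ATF4 and CHOP, averaged 4024 ± 156 at 50% on day 3 and 4383 ± 318 at 100% on day 3, and 16401 ± 1010 at 50% on day 6 and 12761 ± 2084 at 100% on day 6. Its log2 difference was -0.12 on day 3 and 0.37 on day 6 (limma adjusted p = 0.564 on day 6), and it passed on day 6 without replicate 1 of 100% on day 6.

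All 20 cytosolic aminoacyl-tRNA synthetases had an interval inside ±0.5, beside 83.1% of genes with a mean of at least 50. Their differences ran from -0.05 to 0.10. QARS1, which charges glutamine, had 0.10 (interval -0.01 to 0.20) at 50% and fell by 1.59 at 25% against 100%. Among 20 amino acid transporters the differences ran from -0.20 to 0.23. SLC7A5, the main carrier of large neutral amino acids including histidine, measured 47035, 52728 and 50938 at 50% on day 3, against 50211 and 54126 at 100%, and 44647, 43676 and 44543 at 50% on day 6, against 42216, 45466 and 44221 at 100%. The groups overlapped on both days (log2 -0.02, interval -0.09 to 0.06). SLC38A5, a carrier of glutamine and histidine, had 0.06 (-0.07 to 0.20). Of 25 genes of mTORC1 amino acid sensing, 24 had an interval inside ±0.5, and the other was DEPDC5, a subunit of the GATOR1 inhibitor, at -0.44 (-0.78 to -0.10, adjusted p = 0.846).

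Among the eIF2 kinases, EIF2AK4, the gene of GCN2, had a difference of -0.0028 (interval -0.11 to 0.10). EIF2AK2, the kinase that senses double-stranded RNA, had the largest difference of the 4 kinases. EIF2AK2 measured 515, 342 and 362 at 50% on day 3, against 600 and 626 at 100%, and 549, 331 and 463 at 50% on day 6, against 674, 608 and 1002 at 100%. All libraries at 50% lay below all at 100% within each day, and the difference of -0.70 (SE 0.16) did not pass (limma adjusted p = 0.647). With the library number modulo 8 in a fit of all 25 libraries it was -0.24. PPP1R15A, the subunit that returns eIF2 to its unphosphorylated state, had 0.24 (SE 0.073, adjusted p = 0.819).

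On day 6 the endoplasmic reticulum chaperones stood higher at 50% than at 100%, all on the same side but none past the threshold. These proteins fold and quality-control secreted and membrane proteins. On day 6 all 19 had a log2 difference above 0, with a median of 0.33 beside 0.01 over all genes, and 17 had an unadjusted p under 0.05, against 1126 of all genes (4.9%). On day 3 the median was -0.02, 11 lay below 0, and 0 had an unadjusted p under 0.05, against 1070 of all genes (4.65%). At 25% against 100%, both days pooled, 0 members rose and 10 fell, with a median of -0.50. By day, the list median in the libraries at 25% was -0.04 to 0.09 on day 3 and -0.92 to -0.82 on day 6, relative to the mean at 100%.

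HSPA5, whose promoter is printed above, measured 47448, 46977 and 41038 at 50% on day 6, against 43910, 28961 and 32307 at 100%. At 25% on day 6 it measured 5415, 6532 and 5376. Replicate 1 of 100% lay within the range of the libraries at 50%, and the other two lay below it (log2 0.38, 95% interval 0.07 to 0.70, limma adjusted p = 0.953). SDF2L1, a co-chaperone, measured 2677, 2919 and 2596 at 50% on day 6, against 2247, 1599 and 1815 at 100%. Here the groups did not overlap, and the difference of 0.55 (interval 0.33 to 0.76) had an adjusted p of 0.148.

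MANF, a secreted factor induced by ER stress, measured 7140, 7555 and 6544 at 50% on day 6, against 5871, 4169 and 4852 at 100% (log2 0.52, interval 0.30 to 0.75). CRELD2, another induced folding factor, measured 1227, 1403 and 1161 at 50% on day 6, against 1003, 747 and 844 at 100%, and 558, 460 and 455 at 50% on day 3, against 368 and 441 at 100%. Its groups did not overlap on either day, with 50% higher on both. In all, 7 of the 19 had every library at 50% above every library at 100% on day 6, against 1414 of all genes (6.15%). EDEM1, which marks misfolded glycoproteins for disposal, had a difference of 0.06 (-0.07 to 0.18), and XBP1 of 0.15 (-0.01 to 0.32).

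The list median in single libraries of day 6, relative to the mean at 100%, was 0.44, 0.44 and 0.24 at 50%, against 0.25, -0.17 and -0.07 at 100%. Replicate 1 of 100% thus stood with the libraries at 50%. Without that replicate, 15 genes passed on day 6 in place of 0, and 10 of them were members of the list: HSPA5, HSP90B1, CALR, CANX, PDIA4, PDIA6, DNAJB11, HYOU1, SDF2L1 and MANF. The list median was then 0.46. Without replicate 2 or 3 of 100% on day 6 it was 0.26 and 0.30. With the library number modulo 8 in a fit of all 25 libraries it was 0.36, with 14 members at an unadjusted p under 0.05. The difference between days of the effect was 0.59 for SDF2L1 (SE 0.15, limma adjusted p = 0.999) and 0.45 for HSPA5 (SE 0.21).

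Sterol and fatty acid genes had the opposite pattern on day 6. Of 25 genes of cholesterol synthesis and uptake, 24 had a log2 difference below 0 on day 6, with a median of -0.22, and 14 had an unadjusted p under 0.05. On day 3 the median was 0.08 and 20 lay above 0. Without replicate 1 of 100% on day 3 that median was -0.0022 with 12 above 0, and without replicate 3 it was 0.145 with 23 above 0. Of 15 genes of fatty acid synthesis and desaturation all lay below 0 on day 6, with a median of -0.17, and 6 had an unadjusted p under 0.05. Over all genes 1126 (4.9%) had one on day 6. No member of either list passed after adjustment. With the library number modulo 8 in a fit of all 25 libraries the fatty acid median was -0.11. Then 14 members lay below 0 and 2 had an unadjusted p under 0.05. In that fit 12 sterol genes had one, with a median of -0.27. On day 6, 15 sterol genes and 7 fatty acid genes had every library at 50% below every library at 100%, against 999 of all genes (4.34%).

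**Figure D3:**
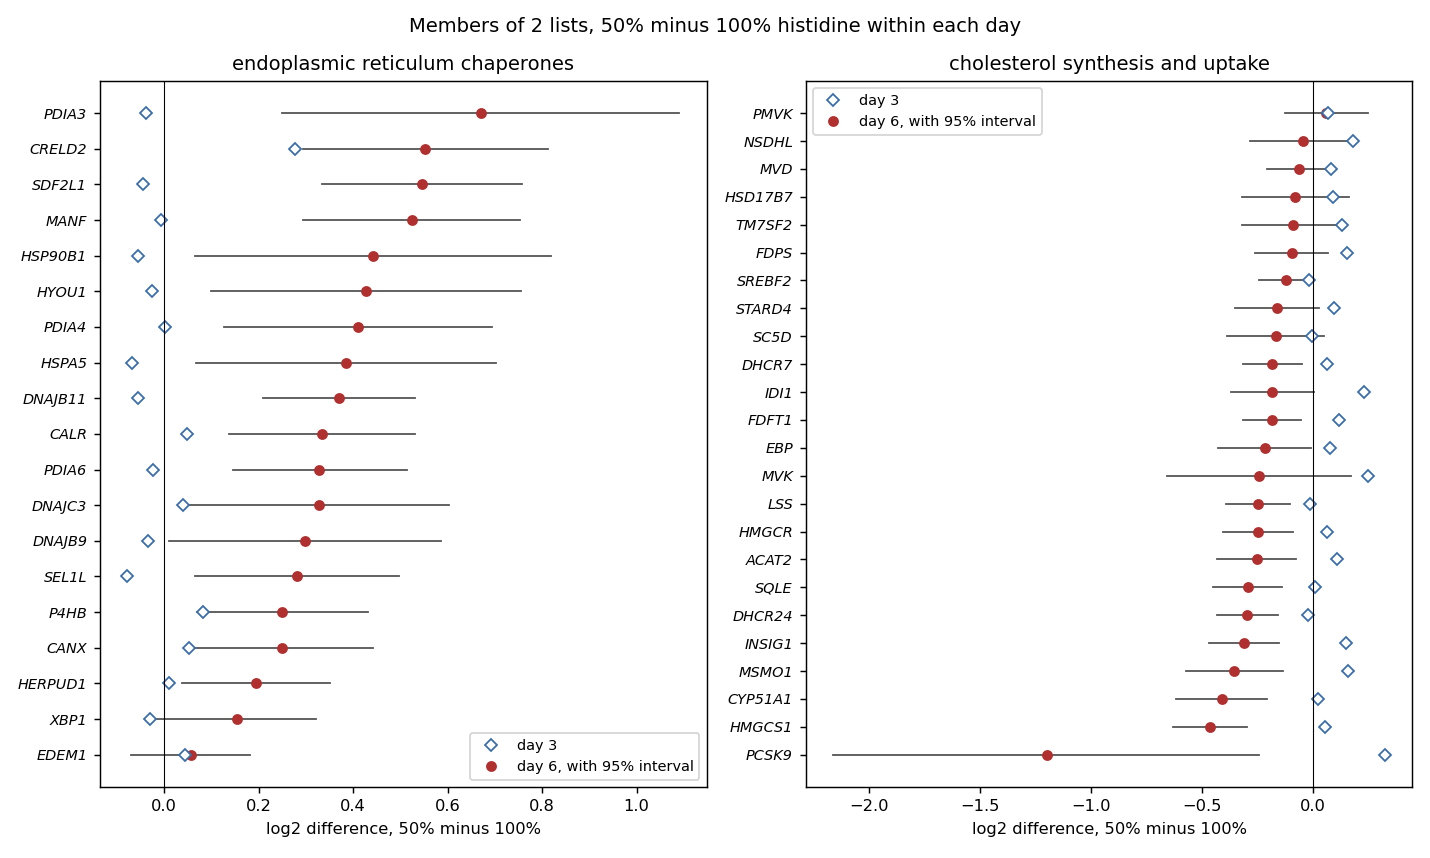
Log2 difference of 50% minus 100% histidine for members of 2 lists, ordered by the day 6 value. Filled circles with lines are day 6 with its 95% interval and open diamonds are day 3. The chaperones lie right of 0 on day 6 and around 0 on day 3, and the sterol genes shown lie left of 0 on day 6 with 1 exception.

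HMGCS1, the HMG-CoA synthase of the mevalonate pathway (ENSG00000112972.14, chromosome 5, 43289395 to 43313512, minus strand), measured 2072, 1955 and 1900 at 50% on day 6, against 2551, 3181 and 2492 at 100%. The groups did not overlap, and the difference of -0.46 (SE 0.079) had a limma adjusted p of 0.0857. On day 3 it measured 11404, 11483 and 11145 at 50%, against 10529 and 11360 at 100%, and the groups overlapped (log2 0.05). The difference between days was -0.52 (SE 0.12, adjusted p = 0.883), not past the threshold. At 25% HMGCS1 averaged 1261 ± 32.9 on day 3 and 1080 ± 29.8 on day 6 (n = 3 each). HMGCS1 passed on day 6 under total-sum scaling, under quantile normalization, with all 25 libraries in the fit and without replicate 1 of 100% on day 6.

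SCD, the desaturase that makes oleate, measured 30472, 28748 and 29909 at 50% on day 6, against 36933, 41656 and 36033 at 100% (log2 -0.36, SE 0.060, adjusted p = 0.0857). Its groups did not overlap on day 6 and overlapped on day 3. INSIG1, the sterol sensor partner that SREBP induces, had -0.31 on day 6 and 0.15 on day 3, and SQLE, the squalene epoxidase, -0.29 and 0.01. Pooled over days the sterol list had a median of -0.09 with 0 called, beside 23 lower and 1 higher at 25% against 100% with a median of -1.26. The fatty acid list had a pooled median of -0.10, beside -0.42 with 12 lower at 25%.

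The day 6 median of the sterol list ran from -0.27 to -0.17 over 15 other settings, including each library left out, both other scalings and the library number. It cannot move when a day 3 library is left out or when all 25 libraries enter the fit. In those settings it was -0.22, as in the main fit, so they do not test its stability. In single libraries of day 6 the list median, relative to the mean at 100%, was -0.24, -0.18 and -0.22 at 50%, against -0.07, 0.10 and -0.03 at 100%, without overlap. A sterol element-like motif, TCACNCCAC, searched on both strands, was found in the promoter window of 1 of 18 matched sterol genes, SREBF2, and in 1.39% of all genes with a window.

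**Figure D4:**
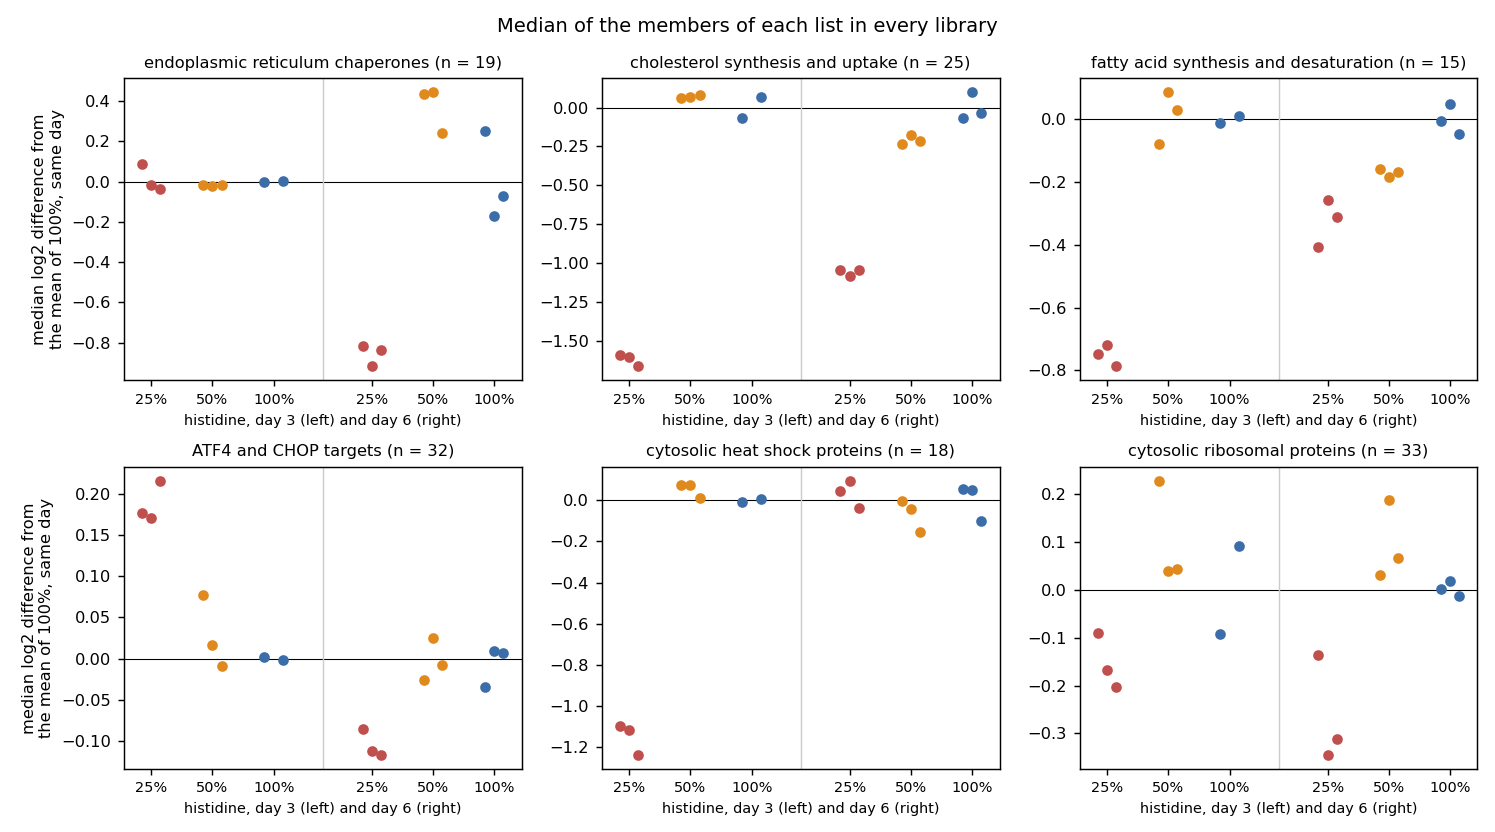
Median over the members of 6 lists of the log2 difference from the mean of the 100% libraries of the same day, 1 point per library at 25%, 50% and 100% histidine. On day 6 the chaperones at 50% lie at 0.24 to 0.44 and the sterol genes at -0.24 to -0.18, whereas the ATF4 targets and heat shock genes at 50% overlap those at 100%.

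Several other programmes that changed at 25% had pooled medians near 0 at 50% against 100%, some with opposite signs on the 2 days. Cytosolic heat shock genes had a pooled median of 0.0030 at 50% and of -0.46 at 25% against 100%. Their library medians at 25%, relative to the mean at 100%, were -1.1, -1.12 and -1.24 on day 3. On day 6 they were 0.04, 0.10 and -0.04, so the lower level at 25% was seen on day 3 only. Their median at 50% was 0.09 on day 3, with 4 of 18 below 0, and -0.07 on day 6, with 15 of 18 below 0. HSPA1B, the inducible HSP70, averaged 23928 ± 4208 at 50% on day 3 (n = 3) and 19944 ± 1811 at 100% on day 3 (n = 2), and 510 ± 147 at 50% on day 6 and 721 ± 350 at 100% on day 6 (n = 3 each). Its interval, pooled over days, was wide, -0.75 to 0.49, so differences within that range are not excluded. Glycolysis and hypoxia genes had a pooled median of -0.02 at 50% and of -0.57 at 25%, where 20 fell. Their median at 50% was 0.10 on day 3, with 6 of 27 below 0, and -0.09 on day 6, with 24 of 27 below 0. On day 6, 6 had an unadjusted p under 0.05, beside 4.9% of all genes. The library medians of both lists overlapped between 50% and 100% on day 6. ALDOC, a brain-type aldolase that hypoxia also induces, had 0.13 on day 3 and -0.36 on day 6.

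TXNIP, which restrains glucose transport and binds thioredoxin, measured 975, 867 and 775 at 50% on day 3, against 743 and 903 at 100%, and 432, 534 and 404 at 50% on day 6, against 543, 510 and 503 at 100%. The groups overlapped on both days (log2 -0.07, interval -0.27 to 0.13). At 25% TXNIP averaged 8954 ± 215 on day 3 and 12792 ± 132 on day 6, 17.0-fold above 50%. SNHG12, a host gene of small nucleolar RNAs whose spliced transcript is degraded during translation, had 0.04 (interval -0.35 to 0.44) at 50% and was 12.3-fold higher at 25% than at 50%. The other genes with the largest differences between 25% and 50% were HSPA1B, HSPA6, TERT, MYL4, HTR2B, CCR8 and GRIK4, all lower at 25%, and CNTN4, higher at 25%.

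Of those 10 genes, TERT and HTR2B had an interval above 0 at 50% against 100% without passing. TERT, the telomerase catalytic subunit, measured 295, 338 and 279 at 50% on day 3, against 213 and 303 at 100%, and 167, 130 and 136 at 50% on day 6, against 135, 112 and 66.4 at 100%. The groups overlapped on day 3 and on day 6 (log2 0.40, interval 0.05 to 0.75, limma adjusted p = 0.847). HTR2B, a serotonin receptor, had a log2 difference of 0.48 (interval 0.10 to 0.87), with every library at 50% above those at 100% within each day, and at 25% it fell by 2.66 against 100%.

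The 2648 genes that rose at 25% against 100% had a median log2 difference of 0.42 there and of 0.05 at 50%. The 2443 that fell had -0.54 there and 0.00053 at 50%. For 86.8% of the first set and 81.8% of the second, the interval at 50% lay inside ±0.5. That held for 48.2% of all genes tested and for 83.1% of those with a mean of at least 50. The medians at 25% are about as large as this range. The shares thus do not tell no change at 50% from a change of that size. Among 687 genes that passed at 25% with a difference over 1, the interval at 50% lay inside ±0.5 for 27.5% and inside ±1 for 59.7%, many being low genes with wide intervals.

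Proliferation, ribosome and lineage genes were also bounded when pooled over days. All 30 genes of G1/S and DNA replication had an interval inside ±1, and all 25 of G2/M and mitosis inside ±0.5. Over all genes tested the shares were 66.7% inside ±1 and 48.2% inside ±0.5. Among genes with a mean of at least 50 they were 96.9% and 83.1%. The G2/M median was 0.09 on day 3, with 2 of 25 below 0, and -0.04 on day 6, with 16 of 25 below 0. MKI67, a marker of cycling cells, had -0.14 (interval -0.27 to -0.01) and TOP2A, a mitotic topoisomerase, 0.01 (-0.08 to 0.11). MYC, a driver of growth, had -0.01 (-0.12 to 0.10) at 50% and fell by 1.29 at 25% against 100%. Cytosolic ribosomal protein genes leaned upward by a small amount: 32 of 33 lay above 0, 15 with an unadjusted p under 0.05, beside 5.83% of all genes, with a median of 0.10. The median was 0.10 on each day, but on day 3 it was 0.0063 without replicate 1 and 0.20 without replicate 3 of 100% on day 3, and on day 6 it was -0.03 with the library number modulo 8. Their library medians on day 3 were 0.23, 0.04 and 0.04 at 50%, against -0.09 and 0.09 at 100%, and overlapped. On day 6 they were 0.03, 0.19 and 0.07 at 50%, against 0.0028, 0.02 and -0.01 at 100%, without overlap. At 25% against 100%, 19 of them fell, RPL3 by 1.04.

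Among 34 T-lineage genes 0 passed and 31 had an interval inside ±0.5, beside 83.1% of genes with a mean of at least 50. RAG2, a subunit of the recombinase of antigen receptor genes, had -0.04 (-0.17 to 0.09) at 50% and fell by 1.53 at 25% against 100%. CD3E, an invariant signalling subunit beside the T-cell receptor, had 0.07 (-0.01 to 0.14). DUSP1, an immediate early phosphatase, measured 1076, 1553 and 1213 at 50% on day 3, against 958 and 1002 at 100%, and 288, 311 and 334 at 50% on day 6, against 241, 288 and 257 at 100%. Its groups did not overlap on either day (log2 0.30, SE 0.093, adjusted p = 0.819). BBC3, a p53-induced killer of the BCL2 family, also had every library at 50% above those at 100% within each day (log2 0.28, SE 0.10).

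Mitochondrially encoded messenger RNAs changed sides between days without passing. All 13 lay below 0 on day 3, with a median of -0.35, and all 13 above 0 on day 6, with a median of 0.24. Their library medians on day 3 were -0.69, -0.11 and -0.20 at 50%, against 0.22 and -0.22 at 100%, and on day 6 0.42, -0.13 and 0.43 at 50%, against -0.42, 0.28 and 0.11 at 100%, so the groups overlapped on both days. Nucleotide synthesis genes all had an interval inside ±0.5, as did 83.1% of genes with a mean of at least 50. Their median was 0.04, beside -0.26 at 25%. IMPDH2, of guanine nucleotide synthesis, had 0.04 (-0.05 to 0.13).

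Within a day, 3 genes (0.013%) passed on day 3 and 0 (0%) on day 6, and the difference between days passed for 0 genes (0%; 912 had an unadjusted p under 0.05). Of the day 3 genes 2 were higher at 50%, with 100% libraries at or near 0, and 1 was lower. ZNG1F, of a family of zinc chaperones, measured 46.9, 47.2 and 27.0 at 50% on day 3 and was listed at 0 in both libraries at 100%. On day 6 it measured 11.4, 16.5 and 9.0 at 50%, against 46.6, 10.7 and 10.1 at 100%. DISP1, which releases hedgehog ligands, measured 75.6, 62.5 and 65.8 at 50% on day 3, against 3.5 and 0 at 100%, and on day 6 it overlapped. The lower one was the read-through transcript SPECC1L-ADORA2A, with a log2 difference of -2.93 (SE 0.45, adjusted p = 0.0438). With all 25 libraries in the fit, 0 genes passed on day 3. In estimated counts an exact 0 can be a failed assignment, so no fold is given for ZNG1F and DISP1.

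Libraries and markers bear on part of these values. The 11 libraries summed to 18.7 to 21.2 mega-counts after normalization, 2.95% to 5.32% of it mitochondrial, and CD3E lay between 15441 and 17817 and RAG1 between 7701 and 10580, as T-lineage markers of Jurkat. The first principal component of the 11 libraries (36%) separated the days. On the second (10.4%) the libraries at 50% on day 6 lay at -17, -17.3 and -5.56, against 12.9, 7.47 and 14.2 at 100%. On day 3 they overlapped, at -10.1, -1.77 and 5.28 at 50%, against 17.4 and -5.59 at 100%. The library at 25% on day 6, replicate 2, stood apart, with 18207 normalized counts of MYH7, a cardiac myosin, which reached at most 67.5 in the 11 libraries. Without it 5045 genes passed at 25% against 100% and 5437 at 25% against 50%.

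Some transcripts of other cell types, though not all members of their marker lists, moved with the library number in the labels. That number runs from 1 to 25, and what it stands for is not stated. The modulus of 8 was a choice made here and is not in the labels. A position below is the remainder after division by 8, and not a recorded place or batch. HBA2, a haemoglobin alpha chain, measured 1471, 1523 and 2172 at 50% on day 3, against 82.8 and 64.5 at 100%, and 41.2, 1676 and 1384 at 50% on day 6, against 73.2, 63.6 and 77.6 at 100%. Over all 25 libraries HBA2 was at least 1384 wherever the library number modulo 8 was 3, 4 or 5, at any histidine level, and at most 194 elsewhere. HBB was also high at these positions, but it reached 2747 at position 6 as well, in replicate 2 of 25% on day 6. The libraries at 50% hold the positions 3, 4 and 5 on day 3 and 2, 3 and 4 on day 6, and those at 100% the positions 1 and 2 on day 3 and 7, 0 and 1 on day 6. At position 2, which holds both levels, HBA2 measured 41.2 at 50% and 64.5 at 100%. With position in a fit of all 25 libraries the log2 difference of 50% against 100% was -0.11 for HBA2, -0.07 for HBA1 and -0.17 for HBB. In the 11 libraries ALAS2, the haem synthesis enzyme of red cells, reached at most 13.2.

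The summed erythroid markers ranged from 517 to 5042 at 50% and from 229 to 528 at 100%, and 3 of 4 had an unadjusted p under 0.05. All 5 myeloid markers lay above 0, S100A8 at 4.12 to 20.1 at 50% and 0 to 4.33 at 100%. Fibroblast and matrix markers ran the other way, 7 of 7 below 0, with sums of 2281 to 8615 at 50% and 5353 to 11209 at 100%. FN1, fibronectin, measured 474, 436 and 579 at 50% on day 6, against 3176, 2090 and 2124 at 100%. FN1 was low at positions 2, 3 and 4 at any histidine level, at most 883, and at least 1527 elsewhere. Not every matrix marker did so: COL1A1 reached 2429 at position 2 and 2743 at position 4, and measured 1334 to 1510 at position 0. The values of PTX3, MMP2 and MYOF stand beside those of FN1, and with position in a fit of all 25 libraries PTX3 had -0.67 and MMP2 -0.32.

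NDUFA7 also varied with position. Its libraries at position 3 measured 670 at 50% on day 3, 678 at 50% on day 6 and 687 at 12.5% on day 3. At position 1 they measured 366 and 403 at 100%, with 599 and 403 at 12.5%. With position in a fit of all 25 libraries its difference was 0.33 (adjusted p = 1). Position 2 is the only one that holds both levels, with 603 at 50% on day 6 and 466 at 100% on day 3.

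**Figure D5:**
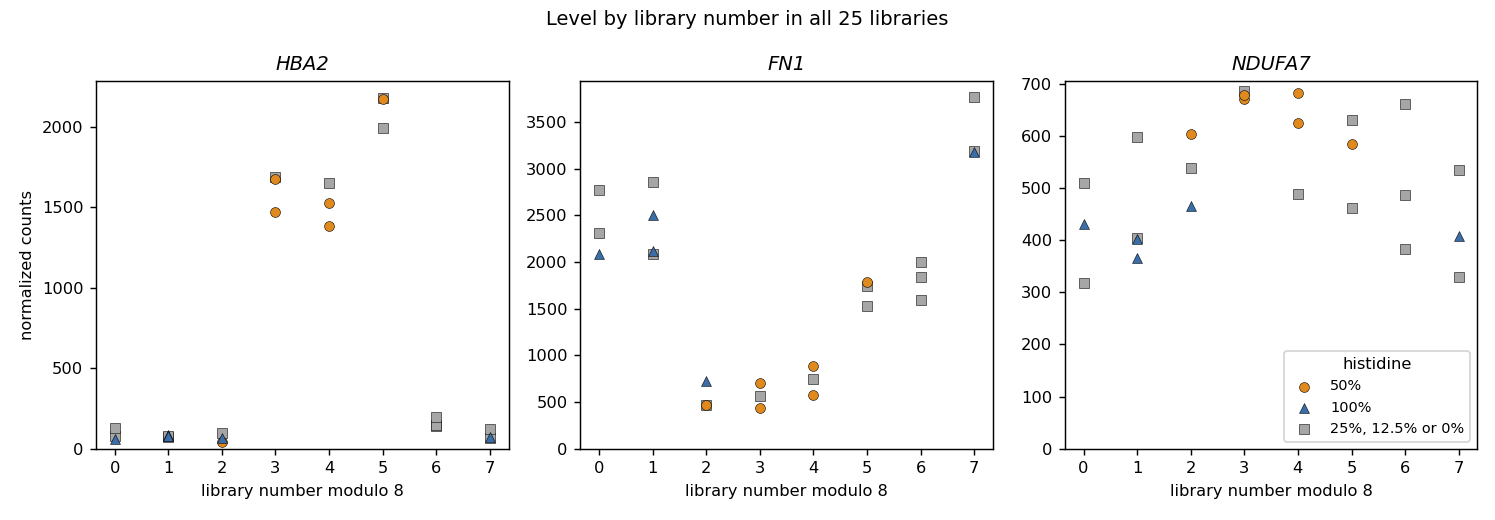
Normalized counts of HBA2, FN1 and NDUFA7 against the library number modulo 8 in all 25 libraries, with 50%, 100% and all other histidine levels marked. HBA2 is at least 1384 at positions 3 to 5 whatever the histidine level, FN1 is low at positions 2 to 4, and the libraries at 50% sit at positions 2 to 5.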

How the data were processed

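The deposited table holds normalized gene counts, a signal per gene and library obtained by dividing estimated counts by a size factor per library with DESeq2, per the file header and the submitters' processing notes. Those notes name FastQC 0.11.9, kallisto 0.50.1, DESeq2 1.44.0 and GRCh38, without the annotation or the use of strand. It covers 36755 genes in 25 libraries, with no library total, so the depth is unknown. Low values were whole multiples of a common step in 55.6% to 75.4% of cases per library (values up to 20 reads, tolerance 0.05), so reads were not recovered and no count test was run.

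Libraries were grouped by their labels. The 22994 genes that reached a normalized count of 10 in 2 libraries or more, of all 25, were kept, and log2(value + 1) was fitted with limma 3.58.1 (R 4.3.3, statmod 1.5.0; trend and robust moderation), with histidine level and day as terms over 11 libraries. The 25% comparisons were fitted likewise on their own libraries, and the effect within each day and its difference between days from group means of the same 11 libraries. P-values were adjusted by Benjamini-Hochberg over all genes tested and called under 0.05, and a fold change on this scale understates the change of low genes. The residual degrees of freedom were 8, with a median of 17.9 after moderation. In data simulated for this comparison over 22994 genes, 71 of 100 genes changed by 0.5 on the log2 scale were recovered. Of 100 changed by 1, 90 were recovered, with 5 false calls. The changed genes were drawn only from genes with a mean of at least 50, so recovery of lower genes was not tested.

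Genes named by rule were the called genes, the 10 uncalled genes of smallest p in each direction, 2 per list, a panel, the 10 largest at 25% against 50%, and 4 for the difference between days. Members of the chaperone, sterol and fatty acid lists on day 6, the genes called on day 3 and the complex I subunits were named after their values were seen. The members and lists were chosen with earlier results of these data known. Coordinates are from GENCODE 29 (GRCh38) and promoter windows from RefSeq (GRCh38.p14). Replicate numbers were not taken to pair libraries in the main fit, and whether they do is not settled here. Alternatives tried were other pseudocounts, filters, scalings, sets of libraries, a library-number term, no day term, a replicate block, unmoderated variance and each library left out. Results of some listed genes are not reported here.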

Additional observations from a re-analysis of the deposited data

Results flagged for a closer look

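In 5 genes, of 192 searched, all libraries at 50% lay on one side of those at 100% on day 3 and on the other side on day 6. Over all genes tested 167 of 22994 (0.726%) did so. The 192 were partly chosen from the same values. KLHDC7B was named for its difference between days, and DNAJB11 and MSMO1 as list members named after their day 6 values were seen. The share among the 192 is thus not comparable with that over all genes. The difference between days was tested with limma, and none of the 5 passed in the fit of the 11 libraries. The 5 were ALDOC, an aldolase, CCR8, a chemokine receptor, DNAJB11, an ER co-chaperone, KLHDC7B, a kelch protein, and MSMO1, a sterol oxidase.

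KLHDC7B measured 12.6, 7.97 and 7.02 at 50% on day 3, against 19.6 and 25.6 at 100%, and 317, 286 and 293 at 50% on day 6, against 222, 132 and 182 at 100%. Its difference between days was 2.01 (SE 0.41, adjusted p = 0.883 in the 11 libraries and 0.0169 with all 25 libraries in the fit). MSMO1 measured 2614, 2250 and 2251 at 50% on day 3, against 2131 and 2117 at 100%, and 639, 759 and 630 at 50% on day 6, against 782, 1011 and 810 at 100%. Its difference between days was -0.51 (SE 0.16, adjusted p = 0.999).

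DNAJB11 had a difference between days of 0.426 (SE 0.11, adjusted p = 0.999), ALDOC of -0.49 (SE 0.11, adjusted p = 0.883) and CCR8 of -0.774 (SE 0.23, adjusted p = 0.999). ALDOC measured 1271, 1216 and 1140 at 50% on day 6, against 1496, 1686 and 1493 at 100%, and 1969, 2016 and 1901 at 50% on day 3, against 1750 and 1848 at 100%.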

How the results depend on the processing

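The count of 1 gene at 50% against 100% was 1 as well with pseudocounts of 0.5 and 10, without a filter, with a filter on the 11 libraries, and under total-sum and quantile scaling. It was 0 with all 25 libraries in the fit, 0 with the library number modulo 8 added, 0 without a day term, 0 with the replicate block within day and 0 without trend or robust moderation. It was 5 in day 3 libraries alone and 4 in day 6 libraries alone. Leaving out 1 library gave 0 to 4 genes, 0 without replicate 1 of 100% on day 3 and 4 without replicate 3 of 100% on day 3. The cause of these changes was not tested. Replicates with the same number had correlations of deviations between -0.142 and 0.162, and those with other numbers between -0.147 and 0.142. With 2 libraries at 100% on day 3, the deviations of these mirror each other, so the day 3 correlations cannot show a pairing. On day 6 the same numbers had 0.03, 0.04 and 0.16. The numbers were not taken to pair libraries in the main fit, but a pairing is not excluded.

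The settings within days were chosen after seeing the data. The count on day 3, 3 genes, was 0 with all 25 libraries, 0 with the library number, and 0 to 9 with 1 library left out (0 without replicate 3 and 9 without replicate 1 of 100% on day 3). The count on day 6, 0 genes, was 2 under total-sum scaling, 3 under quantile scaling, 1 with all 25 libraries, and 0 to 15 with 1 library left out (15 without replicate 1 of 100% on day 6). The difference between days passed for 1 gene, KLHDC7B, with all 25 libraries in the fit.

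Counts at 25% against 100% ran from 4475 to 5045 and at 25% against 50% from 4877 to 5437 with 1 library left out. Of 3400 comparisons for 142 named genes, 127 moved by more than the spread between replicates, 10 lost a call, 11 gained one and 3252 did none of these. Uncalled values changed sign in 128, and 0 called values reversed. With no library totals in the table, the precision of low genes cannot be derived from their counts.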
